A study of Mus musculus with 25 samples.

Results

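Complement expression was described in myeloid cells of the injured mouse spinal cord through 8 genes, which are 8 of the 22439 genes in the deposited count matrices. The genes were chosen by name: C1qa, C1qb and C1qc encode the chains of C1q, C3 encodes the central component, C3ar1 and C5ar1 encode receptors, and Cfb and Cfp encode factor B and properdin. Transcripts were counted by 3' single-cell RNA sequencing on the 10x Genomics droplet platform, in which each captured molecule carries a unique molecular identifier (UMI). The series holds 30958 cells in 25 libraries. A piece of spinal cord of 5 mm was taken from mice after laminectomy alone (Ctrl, 2 libraries) or 1 day (D1, 5 libraries), 2 days (D2, 4), 3 days (D3, 7), 10 days (D10, 5) or 21 days (D21, 2) after spinal cord injury, and myeloid cells were sorted from it. No age is given.

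All mice carried the Cx3cr1CreERT2 allele, in which the Cx3cr1 locus drives an inducible Cre recombinase together with the yellow fluorescent protein YFP. In the 12 mixed libraries the strain was Cx3cr1CreERT2 and YFP+ cells were sorted, so that resident and infiltrating cells were sorted as 1 population. In the other 13 libraries the strain was Cx3cr1CreERT2:R26tdTomato, which adds a red reporter (RFP). Of these, 5 resident libraries held RFP+/YFP+ cells and 7 infiltrating libraries held RFP-/YFP+ cells. The remaining library, of D3, has a title that calls it infiltrating and a sort label of RFP+/YFP+. Its share of microglia, 0.211% of its cells, lies below the 0.253% to 26.5% of the infiltrating libraries and far from the 67.9% to 100% of the resident ones. It was kept out of every test unless stated. The mixed libraries and the resident or infiltrating libraries differ in strain as well as in sort, and these cannot be told apart. A reporter driven by Cx3cr1 limits the sort to cells that express this gene, and each library pools 1 to 3 mice, so p-values measure the spread between libraries.

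Complement is a cascade of proteins that tags targets for uptake and calls in leukocytes. C1q is built from the chains encoded by C1qa, C1qb and C1qc, binds antibodies, dying cells and synapses, and starts the classical pathway. C3 is the point where all pathways meet: its cleavage leaves an opsonin on the target and releases C3a, the ligand of the receptor encoded by C3ar1. C5ar1 encodes the receptor for C5a, a strong attractant of phagocytes. Factor B, from Cfb, supplies the protease of the alternative pathway's convertase, and properdin, from Cfp, stabilises that convertase. In the brain and spinal cord microglia are a main source of C1q, which is known for marking synapses for removal, while properdin is made mainly by blood-borne myeloid cells.

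The 3 C1q genes lie side by side on the minus strand of chromosome 4 in GENCODE M21 (GRCm38): C1qb at 136880129 to 136886187, C1qc at 136889804 to 136893065 and C1qa at 136895917 to 136898803. C3 (chromosome 17, 57203970 to 57228136) and Cfb (chromosome 17, 34856374 to 34862518) share a chromosome. C3ar1 lies on chromosome 6 (122847138 to 122856161), C5ar1 on chromosome 7 (16246743 to 16259540) and Cfp on chromosome X (20925454 to 20931555). These 5 genes are on the minus strand too. The 250 bases before the RefSeq start (GRCm38.p6, minus strand, read 5′ to 3′) are shown for 4 members whose expression patterns differ below: a C1q chain, a receptor, C3 and properdin. Capitals mark the core recognised by PU.1, the lineage factor of myeloid cells (GAGGAA), and a core recognised by Maf factors (TGCTGA), both searched on either strand (TTCCTC and TCAGCA on the reverse). The windows are chr4:136886201-136886450 for C1qb, chr6:122856158-122856407 for C3ar1, chr17:57228137-57228386 for C3 and chrX:20931556-20931805 for Cfp.
C1qb: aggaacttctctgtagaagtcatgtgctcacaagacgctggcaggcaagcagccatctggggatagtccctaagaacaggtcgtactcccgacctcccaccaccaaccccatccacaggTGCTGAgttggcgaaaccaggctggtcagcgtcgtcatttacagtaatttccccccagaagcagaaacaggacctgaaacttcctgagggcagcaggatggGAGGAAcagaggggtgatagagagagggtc
C3ar1: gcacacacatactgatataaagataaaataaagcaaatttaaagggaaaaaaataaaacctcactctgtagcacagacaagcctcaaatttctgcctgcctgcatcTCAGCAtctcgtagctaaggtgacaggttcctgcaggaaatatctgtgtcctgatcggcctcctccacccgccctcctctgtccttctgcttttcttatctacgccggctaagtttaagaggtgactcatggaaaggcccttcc
C3: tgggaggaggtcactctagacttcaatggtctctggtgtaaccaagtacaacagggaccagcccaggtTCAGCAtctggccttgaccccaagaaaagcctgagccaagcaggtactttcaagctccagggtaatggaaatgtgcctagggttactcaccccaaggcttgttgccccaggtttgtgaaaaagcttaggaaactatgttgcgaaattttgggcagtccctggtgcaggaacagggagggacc
Cfp: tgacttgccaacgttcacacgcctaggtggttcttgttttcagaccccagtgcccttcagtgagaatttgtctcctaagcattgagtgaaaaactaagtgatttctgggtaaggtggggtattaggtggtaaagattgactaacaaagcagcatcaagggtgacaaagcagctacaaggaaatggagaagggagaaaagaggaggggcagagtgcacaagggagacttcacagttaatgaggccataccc
The C1qb window holds GAGGAA at -30 to -25 and TGCTGA at -131 to -126 from the start. The reverse of TGCTGA stands at -144 to -139 in the C3ar1 window and at -182 to -177 in the C3 window. The C3 window also holds TTGCGAAA at -45 to -38, a match to the C/EBP pattern TTGCNNAA, and the C3ar1 window holds the AP-1 pattern TGANTCA at -22 to -16. The Cfp window holds neither capitalised motif. Among 32851 RefSeq promoter windows of this length, 23.3% hold GAGGAA, 16.1% TGCTGA, 9.56% TTGCNNAA and 6.75% TGANTCA on either strand, so a match is a description of the letters and no sign of use. RefSeq windows were matched for 6 of the 8 genes. C1qa and Cfb had no entry. The C3ar1 window reaches 4 bases into its own GENCODE gene span. The windows of C1qc and C5ar1 overlap theirs over a long stretch and are not shown.

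The cell types are the authors' deposited codes, read against marker genes. Code 1, microglia (13289 cells, 42.9%), had 10 of 10 microglial markers at 20 counts per 1000000 UMIs (CPM) or more and at 2-fold or more over the cells of the other codes together. Code 2 (12841 cells, 41.5%) holds macrophages with monocytes: 4 of 7 monocyte markers and 6 of 9 macrophage markers passed the same rule. Code 3, dendritic-like (2712 cells), passed for 6 of 9 dendritic markers, and code 4, neutrophil-like (2116 cells), for 7 of 7 neutrophil markers. A library had 155 to 3800 cells, with 486649 to 33204422 UMIs in all, and 127 cell barcodes occurred in more than 1 library. Doublets were not called again. UMIs were summed over the cells of each library and type, with at least 20 cells a sum, and levels are given as CPM of that sum. Tests ran over all genes with edgeR's quasi-likelihood test (TMM scaling, sex as a term, Benjamini-Hochberg adjustment), in 17 microglia sums (Ctrl 2, D1 3, D2 3, D3 5, D10 3, D21 1) and 15 macrophage sums, and 7 of the 8 members had enough counts to be tested in them. Cfb did not. Fold changes are log2 values with their standard error (SE). The lone D21 microglia sum is assumed to vary like the others.

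The C1q transcripts were among the most abundant messages of control microglia and took a smaller part of the microglial UMIs on D1. Together the 3 chains made up 3.32% and 3.66% of all UMIs in the control sums, 1.66% to 1.91% on D1 and 3.20% to 3.41% on D10. C1qa stood at 13160 and 14720 CPM in the mixed and resident controls, and at 6657, 5587 and 5910 CPM in the 3 mixed libraries of D1. On D2 it stood at 5518 and 9312 CPM in the mixed libraries and at 9862 CPM in the resident one. The highest D1 library lay below both controls, and the D2 libraries spread from the D1 level upward.

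The D3 libraries covered nearly the whole range, with C1qa at 6544, 6434 and 14275 CPM in mixed libraries 1 to 3 and 12625 and 8375 CPM in resident libraries 1 and 2. Microglia made up 14.4% of the cells of D3 mixed library 3 and 3.05% of those of D2 mixed library 2. In the other mixed libraries they made up 87.3% to 100%. By D10 the mixed libraries held 12745 and 13082 CPM and the resident library 13075 CPM, and the D21 mixed library held 12099 CPM. The D10 and D21 libraries thus lay just below the lower control and above every D1 and D2 library. C1qb and C1qc followed a similar course. C1qb was at 11132 and 13026 CPM in the controls, 7711, 7001 and 7837 CPM on D1, and 11954, 12170 and 10385 CPM on D10. C1qc was at 8883 and 8853 CPM in the controls, 4702, 4020 and 3857 CPM on D1, and 8640, 8821 and 8554 CPM on D10. For these genes too no D1 library reached a control.

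Whether this dip passed the test depended on the scaling of the libraries and on the tool. With TMM scaling edgeR called none of the 3 chains against Ctrl at any time: on D1 the log2 fold change was -0.50 for C1qa (SE 0.34, adjusted p = 0.237), -0.04 for C1qb (SE 0.28, adjusted p = 0.921) and -0.38 for C1qc (SE 0.26, adjusted p = 0.249). DESeq2 called C1qc on D1 (-0.55, adjusted p = 0.0279), and with sums thinned to equal depth edgeR called C1qa (-0.91, adjusted p = 0.0332) and C1qc (-0.78, adjusted p = 0.0304). With library size alone, chosen as an alternative after the data were seen, C1qa was at -1.22 (SE 0.34, edgeR adjusted p = 0.00627), C1qb at -0.77 (SE 0.27, adjusted p = 0.0235) and C1qc at -1.10 (SE 0.26, adjusted p = 0.00182) on D1. That scaling moved the median of all genes from -0.01 to -0.73 on D1, so C1qb sat near the median gene on both scales. On D2, C1qb and C1qc passed with library size alone, at -0.78 (adjusted p = 0.0273) and -0.75 (adjusted p = 0.0277), while the median gene moved to -0.40. From D3 on no C1q gene was called on either scale. Relative to the median gene, C1qa was lower on D1 on both scales, while on D10 the chains were 0.48, 0.49 and 0.55 above Ctrl with TMM (adjusted p = 0.405, 0.287 and 0.199) and at -0.11, -0.10 and -0.04 with library size alone. On D2 and D3 with TMM they were at -0.44, -0.44 and -0.41 and at 0.04, 0.05 and 0.18, and on D21 at 0.68, 0.84 and 0.62.

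**Figure D1:**
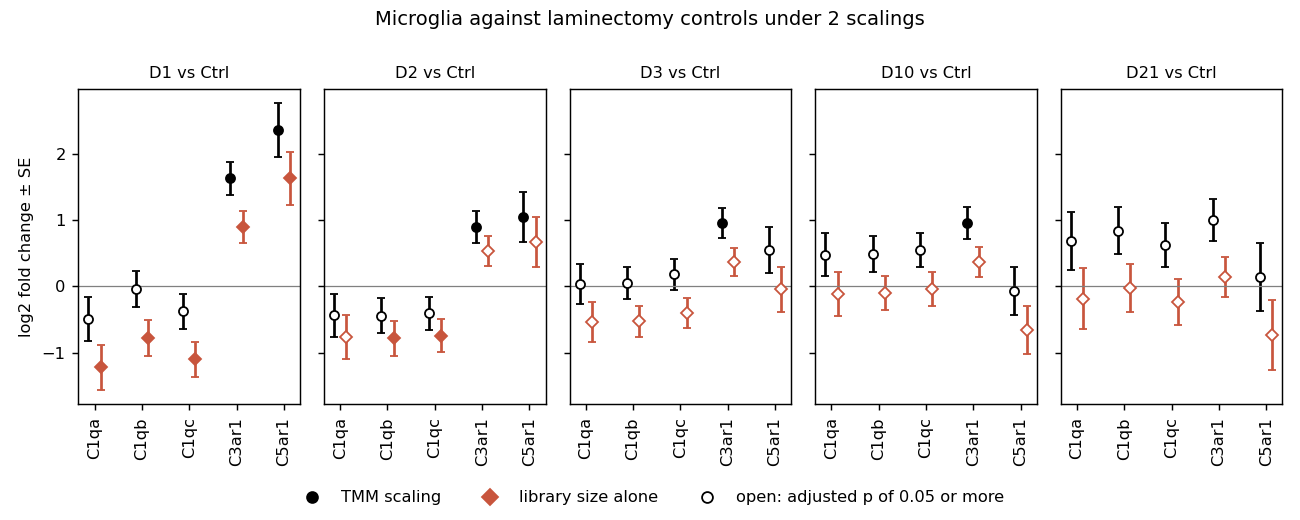
Log2 fold change against Ctrl with its SE (vertical axis) in microglia for the C1q genes and both receptors (horizontal axis), 1 panel per time point, with TMM scaling (circles) and with library size alone (diamonds). Filled symbols have an edgeR adjusted p under 0.05. The C1q genes are called on D1 and, for C1qb and C1qc, on D2 with library size alone, and C5ar1 and C3ar1 lie above 0 on D1 under both.

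The summed microglial markers were lower on D1 as well, but unlike C1qa they were also far from the control level on D10 and D21. The list held 26916 and 30480 CPM in the controls, 4837 to 9153 CPM on D1, 14480 to 16134 CPM on D10 and 11659 CPM on D21. The macrophage list in the same microglia sums held 2067 and 2213 CPM in Ctrl, 3266 to 5177 CPM on D1 and 54245 to 64072 CPM on D10. Of the 9 genes of that list, Apoe, Cd63 and Mrc1 did not pass the marker rule for macrophages. The part of these shifts in the C1q values was not tested. No D1 library shared a sequencing pool with a control, and in that comparison the effects of pool and of time cannot be told apart. The 3 D1 libraries did share a pool with the D21 mixed library, and there C1qa was at 5587 to 6657 CPM on D1 and at 12099 CPM on D21.

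**Figure D2:**
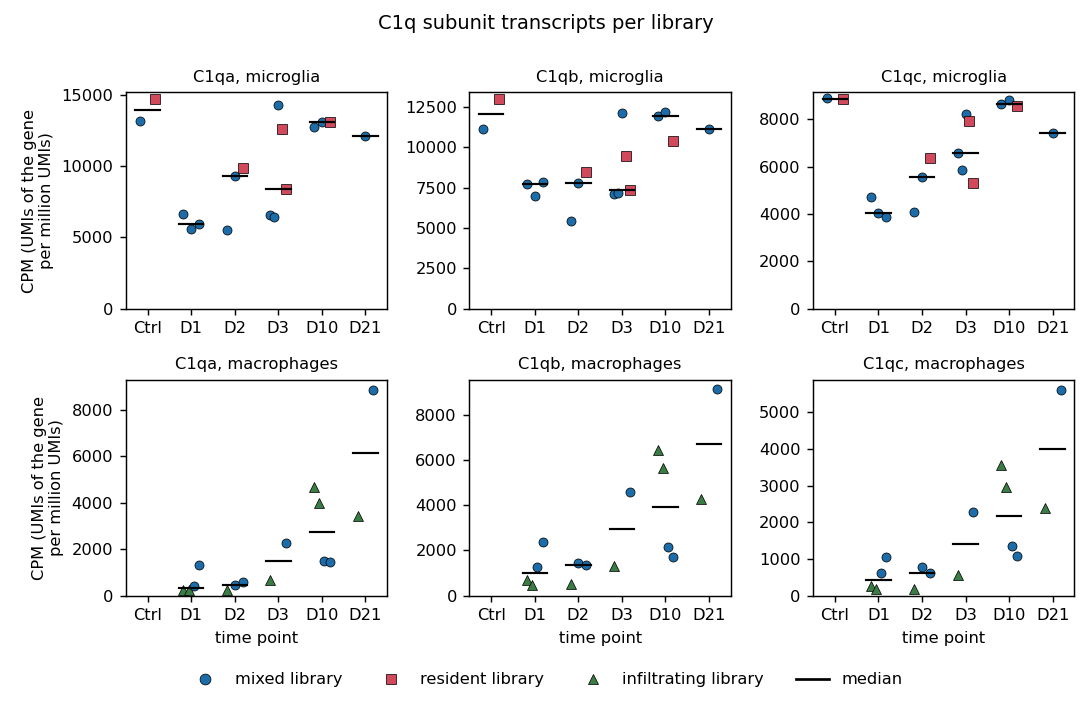
CPM of C1qa, C1qb and C1qc (vertical axis, linear) by time point, in microglia (upper row) and macrophages (lower row). Each point is 1 library, its shape gives the sort, and the line is the median. Microglial C1qa lies between 5518 and 14720 CPM throughout, and C1qa in macrophages of infiltrating and mixed libraries lies between 238 and 8873 CPM with its highest points on D10 and D21.

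In infiltrating and mixed libraries macrophages held far less C1q RNA than microglia early and had higher levels late. C1qa was at 242 and 248 CPM in infiltrating libraries 1 and 2 of D1 and at 432 and 1328 CPM in mixed libraries 1 and 3. On D2 it was at 238 CPM in the infiltrating library and at 454 and 584 CPM in the mixed ones, and on D3 at 687 CPM in the infiltrating and 2286 CPM in the mixed library. On D10 the infiltrating libraries held 4668 and 3993 CPM and the mixed ones 1482 and 1440 CPM. On D21 the infiltrating library held 3424 CPM and the mixed one 8873 CPM. All D10 and D21 libraries lay above all D1 libraries for C1qa, by a margin that was narrow for the mixed libraries of D10. The macrophages of resident libraries, which were not part of the fit, showed little course: C1qa was at 2025 CPM on D2, 1486 and 1642 CPM on D3 and 2312 CPM on D10. These early values lay above both mixed libraries of D10.

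This late excess of C1q missed the threshold in edgeR with time and sex as terms. Against D1, C1qa was 2.45 higher on D10 on the log2 scale (SE 0.78, adjusted p = 0.0565) and 3.73 higher on D21 (SE 0.95, adjusted p = 0.0537). C1qc was at 2.14 (adjusted p = 0.0871) and 3.13 (adjusted p = 0.0893), and C1qb at 1.77 (adjusted p = 0.115) and 2.66 (adjusted p = 0.105). The medians of all genes in these comparisons were 0.01 and -0.02. With sort as a further term edgeR called C1qa (2.89, adjusted p = 0.0293) and C1qc (2.70, adjusted p = 0.0291) on D10 and C1qa (3.63, adjusted p = 0.0324) and C1qc (3.13, adjusted p = 0.0421) on D21. With DESeq2 the D10 difference was called for all 3 chains, with C1qa at 2.49 (DESeq2 adjusted p = 0.00186), C1qb at 1.81 (adjusted p = 0.0239) and C1qc at 2.18 (adjusted p = 0.00817). On D21 DESeq2 called them as well, at 3.78, 2.72 and 3.18 (adjusted p = 0.000271, 0.0111 and 0.00363). In the mixed libraries alone the D10 changes were smaller, at 0.87 for C1qa (edgeR adjusted p = 0.26), 0.21 for C1qb (adjusted p = 0.717) and 0.69 for C1qc (adjusted p = 0.172), while on D21, from 1 library, they were 4.33 (adjusted p = 0.101), 2.88 (adjusted p = 0.0588) and 3.06 (adjusted p = 0.0322).

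On D2 and D3 no member was called in macrophages, where edgeR called 0% of 8577 genes. At an unadjusted p under 0.05 there were 105 genes on D2 and 597 on D3, and DESeq2 called 0 and 5. C1qa, C1qb and C1qc were at 1.70, 1.60 and 1.77 on D3 (adjusted p = 0.746, 0.746 and 0.742), with values that ran from 687 to 2286 CPM for C1qa over 2 libraries. On D2 these chains were at -0.48, -0.27 and -0.14. In mixed libraries alone, where D3 is 1 library assumed to vary like the others, edgeR called 897 genes and 4 members on D3. These were C1qb (1.85, adjusted p = 0.00807), C1qc (1.98, adjusted p = 0.00443), C3 (-4.11, adjusted p = 0.000443) and C5ar1 (-2.17, adjusted p = 0.00278).

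Which macrophages a library held differed with time. The authors cut code 2 into clusters, and 71 of the 78 macrophages of the D21 mixed library, the one with 8873 CPM of C1qa, lay in cluster 3, whose cells are mostly coded microglia. In the D3 mixed library 2676 of 3019 macrophages lay in cluster 9, as did 432 of 549 in infiltrating library 1 of D10. The summed microglial markers in macrophages also went from 299 to 1408 CPM on D1 to 1006 to 3377 CPM on D10 and 2366 to 4782 CPM on D21, and their part in the C1q difference was not tested. Without the macrophages of clusters 2 and 3, the C1qa difference was 2.48 on D10 (edgeR adjusted p = 0.0821) and 2.60 on D21. This fit held 13 of the 15 sums, because mixed library 1 of D1 and the D21 mixed library kept too few cells. The D21 value thus rests on the infiltrating library alone and lacks the library with 8873 CPM. The effect of removing these cells on D21 was therefore not tested.

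The balance between the C1q chains also differed between sums. Counts of 3' UMIs do not give levels between genes, but the ratio of C1qb to C1qa can be followed from sum to sum. In microglia it was 0.846 and 0.885 in the controls and 1.16, 1.25 and 1.33 on D1. On D10 it was back to 0.938, 0.930 and 0.794, and on D21 it was 0.919. The D1 ratios were the highest of all 17 microglia sums, and C1qa made up 39.7% and 40.2% of the 3 chains in Ctrl against 33.6% to 34.9% on D1.

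Macrophages of infiltrating and mixed libraries had higher ratios at the start. C1qb to C1qa was 2.96, 1.93, 2.96 and 1.79 on D1, 2.15, 3.19 and 2.35 on D2, 1.93 and 2.00 on D3, 1.38, 1.42, 1.45 and 1.18 on D10, and 1.25 and 1.03 on D21. In these infiltrating and mixed libraries every sum of D10 and D21 lay below every earlier one. The macrophages of resident libraries did not follow this order, with 1.097 on D2, 1.44 and 1.30 on D3 and 1.59 on D10. This ratio sets the chains against each other inside 1 sum, so the scaling between libraries does not enter it. No test was planned for it.

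**Figure D3:**
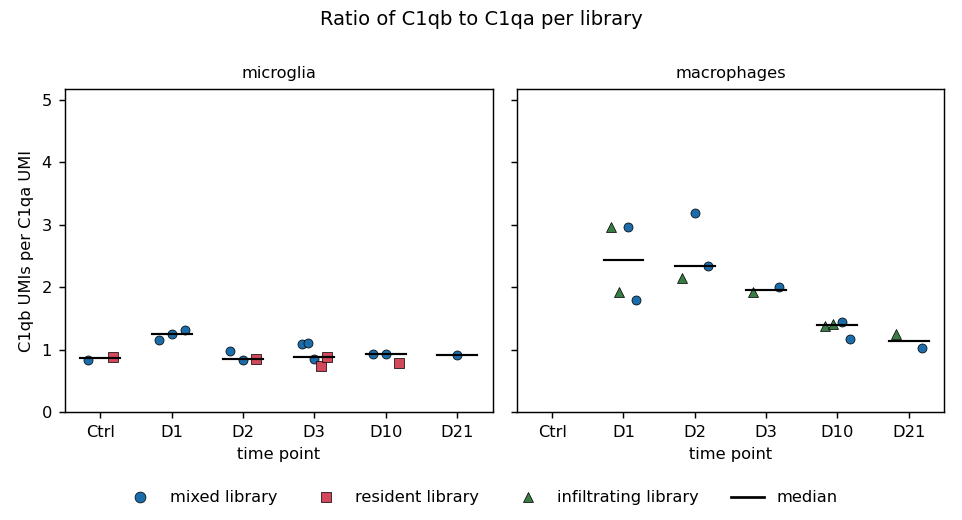
Ratio of C1qb to C1qa UMIs by time point in microglia and macrophages. Each point is 1 library, its shape gives the sort, and the line is the median. Microglia of D1 lie at 1.16 to 1.33 against 0.846 and 0.885 in Ctrl, and macrophages of infiltrating and mixed libraries lie at 1.79 to 2.96 on D1 and at 1.03 and 1.25 on D21.

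Within single libraries the microglia led in C1q throughout. In 14 libraries with sums of both types, microglia had more C1qa, C1qb and C1qc than macrophages in 14 of 14, with median ratios of 5.95 (range 1.36 to 15.95), 3.60 (1.22 to 7.18) and 4.83 (1.32 to 8.97). By time, the median ratio for C1qa was 9.93 on D1 (2 libraries), 12.2 on D2 (3), 6.25 on D3 (3), 7.13 on D10 (4) and 1.84 on D21 (2). For C3, Cfp and Cfb the order was mostly the reverse: microglia were higher in 2, 1 and 1 of the 14, with a median ratio of 0.0807 for C3 and 0.0485 for Cfp. Microglia were higher for C3ar1 in 3 and for C5ar1 in 8. Types were defined from the same cells, so these are descriptions.

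The sort labels give a grouping made before sequencing, and it was tested over all cells of a library. C1qa was at 228 and 215 CPM in the infiltrating libraries of D1, 196 CPM on D2, 451 CPM on D3, 4181 and 2791 CPM on D10 and 3009 CPM on D21. In the resident libraries it was at 14720 CPM in Ctrl, 8414 CPM on D2, 7218 and 5525 CPM on D3 and 9593 CPM on D10. For C1qa and C1qc the groups did not overlap, while for C1qb infiltrating library 1 of D10 (5751 CPM) lay above the second resident library of D3 (5097 CPM). With time and sex as terms, C1qa was lower in infiltrating libraries by a log2 fold change of -3.63 (SE 0.77, edgeR adjusted p = 0.0216), C1qb by -2.56 (SE 0.65, adjusted p = 0.0365) and C1qc by -3.37 (SE 0.76, adjusted p = 0.0278). In this comparison Ctrl had only a resident library, and D1 and D21 had only infiltrating ones. With time as a term, the sort difference is therefore estimated within D2, D3 and D10.

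Cfp was the one member that edgeR called higher in infiltrating libraries, at 2.40 (SE 0.45, edgeR adjusted p = 0.0177). Its levels were 245, 220, 239 and 287 CPM in the infiltrating libraries of D1 to D3, 41.4 and 79.9 CPM on D10 and 129 CPM on D21, against 3.24 CPM in the resident control, 46.8 CPM on D2, 101 and 85.7 CPM on D3 and 4.80 CPM on D10. These ranges overlapped. C3 was at 18.4 to 66.4 CPM in infiltrating and 0 to 17.8 CPM in resident libraries, without overlap, with a change of 1.79 that edgeR did not call (adjusted p = 0.114) and DESeq2 did (1.77, adjusted p = 0.00554). The other changes in edgeR were -0.46 for C3ar1 (adjusted p = 0.325), -0.52 for C5ar1 (adjusted p = 0.215) and -0.75 for Cfb (adjusted p = 0.43).

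In this comparison 10.6% of 11548 genes were called, 4.97% higher and 5.67% lower in infiltrating libraries, against 4 of 8 members (1 higher, 3 lower). The median of the members was -0.64 and that of all genes 0.03. Microglia made up 0.253% to 26.5% of the cells of infiltrating libraries (19.7% and 26.5% in the infiltrating library 2 of D10 and that of D21) and 67.9% to 100% of resident ones. Dendritic-like cells, the type with the highest median of Cfp, numbered 25 to 1265 per infiltrating library and 0 to 12 per resident one. Their part in the Cfp difference was not tested. With the library of conflicting labels counted as resident, no member was called by edgeR (C1qa -3.41, adjusted p = 0.177), and 0 genes in all were called although 5 members had an unadjusted p under 0.05. With sequencing pool as a term the C1q differences were -2.52, -1.66 and -2.28 and were no longer called, while Cfp was, at 2.12 (adjusted p = 0.0487). No member was called without the D2 infiltrating, the D2 resident or the second D3 resident library.

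Of the 2 receptors, C5ar1 had the larger rise in microglia on D1. It stood at 151 and 332 CPM in the mixed and resident controls and at 991, 808 and 559 CPM in D1 mixed libraries 1 to 3, so every D1 library lay above both controls. The log2 fold change was 2.35 (SE 0.41, edgeR adjusted p = 0.000185). On D2 it was at 346 and 303 CPM in mixed libraries and 481 CPM in the resident one, and the change was 1.04 (SE 0.38, adjusted p = 0.045). 1 of these libraries lay below the resident control, and the D2 call was lost in 12 of 30 alternatives, DESeq2 among them (0.94, adjusted p = 0.0617). On D3 it was at 342, 314 and 185 CPM in mixed and 220 and 147 CPM in resident libraries, and from then on it was not called against Ctrl (0.55 on D3, adjusted p = 0.225, -0.07 on D10 and 0.14 on D21). It fell from D1 to D3 by 1.81 (SE 0.29, adjusted p = 0.000467) and was at 158, 125 and 172 CPM on D10 and 130 CPM on D21.

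C3ar1 rose less and stayed up longer. It stood at 191 and 209 CPM in Ctrl and at 399, 312 and 385 CPM on D1, a log2 fold change of 1.63 (SE 0.25, edgeR adjusted p = 8.04e-05). On D2 it was at 279, 252 and 324 CPM, which gave 0.90 (SE 0.24, adjusted p = 0.00988). On D3 it was at 214, 233, 302, 286 and 237 CPM, which gave 0.95 (SE 0.23, adjusted p = 0.00372). The D10 libraries held 231, 266 and 271 CPM, which gave 0.95 (SE 0.24, adjusted p = 0.013), and the D21 library held 224 CPM, which gave 1.00 (SE 0.31, adjusted p = 0.0598). All of these lay above both controls. C3ar1 fell from D1 to D3 by 0.68 (SE 0.19, adjusted p = 0.0174).

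With library size alone both receptors were still higher on D1, with C5ar1 at 1.63 (edgeR adjusted p = 0.00246) and C3ar1 at 0.89 (adjusted p = 0.00444), but the later calls were lost: C3ar1 was at 0.54 on D2 (adjusted p = 0.0738), 0.36 on D3 (adjusted p = 0.163) and 0.36 on D10 (adjusted p = 0.221), and C5ar1 at 0.67 on D2 (adjusted p = 0.167). At equal depth C5ar1 was called on D1 (1.74) and C3ar1 was not (0.75, adjusted p = 0.0725). The later calls were lost there too. C3ar1 was at 0.34 on D2 (edgeR adjusted p = 0.452), 0.34 on D3 (adjusted p = 0.386) and 0.52 on D10 (adjusted p = 0.351). C5ar1 was at 0.52 on D2 (adjusted p = 0.338). From D1 to D3 C3ar1 was at -0.41 at equal depth and was not called (adjusted p = 0.334). Within the sequencing pool shared by the mixed control and the D10 mixed libraries, C3ar1 was at 191 CPM in Ctrl and 231 and 266 CPM on D10. In the pool that holds the resident libraries of Ctrl, D2 and D10 it was at 209 CPM in Ctrl, 324 CPM on D2 and 271 CPM on D10.

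C5ar1 and C3ar1, with Cfp, were the 3 of 7 tested members that rose in microglia on D1, where 46.3% of all 10801 genes were called, 23.6% higher and 22.6% lower. On D2 C3ar1, C5ar1 and Cfp rose as well, with 29.5% of genes called (17.4% higher, 12.1% lower). On D3 C3, C3ar1 and Cfp rose, with 37.5% called (20.1% higher, 17.5% lower). On D10 C3 and C3ar1 rose, with 10.3% called (8.07% higher, 2.24% lower). On D21 C3 rose, with 7.09% called (6.19% higher, 0.898% lower). From D1 to D3 C5ar1 and C3ar1 fell and C3, with 1 UMI on D1 and 9 on D3, was called higher (edgeR adjusted p = 0.021), with 18.6% of genes called (8.4% higher, 10.2% lower). The C3 libraries of D1 and D3 overlapped at 0, and with mixed libraries alone C3 was not called (adjusted p = 0.0946). C1qa, C1qb, C1qc and Cfp were at 0.53, 0.09, 0.56 and 1.25 from D1 to D3, none called (edgeR adjusted p = 0.178, 0.806, 0.0664 and 0.0768). C1qc was called by DESeq2 (0.63, adjusted p = 0.00213). In edgeR it was called at equal depth (0.77, adjusted p = 0.0282) and with library size alone (0.70, adjusted p = 0.0259). No member fell against Ctrl with TMM scaling. Without the mixed control 0 members were called on D2, 0 on D3 and 1 on D10. The median of the 7 was -0.04 on D1, 0.90 on D2, 0.55 on D3, 0.55 on D10 and 0.68 on D21, against medians of all genes from -0.08 to -0.01. Members such as C3 and Cfp passed the count filter through the libraries where they are high.

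In macrophages the course of C5ar1 was a fall. It was at 657 and 574 CPM in infiltrating and 708 and 766 CPM in mixed libraries on D1, at 573, 373 and 411 CPM on D2 and at 462 and 114 CPM on D3. On D10 it was at 71.9 and 41.3 CPM in infiltrating and 50.4 and 31.1 CPM in mixed libraries, and on D21 at 39.7 and 105 CPM. No late library came near a D1 library. In resident libraries C5ar1 in macrophages was at 730 CPM on D2, 462 and 415 CPM on D3 and 64.0 CPM on D10. The log2 fold change from D1 was -3.80 on D10 (SE 0.39, edgeR adjusted p = 8.37e-05) and -3.24 on D21 (SE 0.53, adjusted p = 0.00575). In mixed libraries alone the D21 change, from 1 library, was -2.03 and was not called (adjusted p = 0.165). C5ar1 was the one member of 7 called in macrophages on either day, with 13.4% of genes called on D10 (6.73% higher, 6.65% lower) and 3.29% on D21 (1.76% higher, 1.53% lower). It was at -0.89 on D2 and -1.27 on D3, neither called. The median of the 7 members was -0.26 on D10 and -1.20 on D21.

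C3ar1 in macrophages was at 244 and 337 CPM in infiltrating and 470 and 679 CPM in mixed libraries on D1 and, on D10, at 342 and 256 CPM in infiltrating and 91.1 and 58.8 CPM in mixed libraries (log2 fold change -1.14, edgeR adjusted p = 0.144). On D21 it was at 187 and 146 CPM (-1.20, not called), and on D2 and D3 at -0.32 and -0.27. The D10 infiltrating libraries lay inside the D1 range and the mixed ones below it. In mixed libraries alone the D10 change was -2.81 and was called (edgeR adjusted p = 5.75e-05). Within a library, the median ratio of microglia to macrophages for C5ar1 was 1.06 on D1 (0.729 and 1.40), 0.738 on D2 (3 libraries), 0.477 on D3 (0.355 to 1.63), 2.91 on D10 (2.59 to 4.02, 4 libraries) and 1.21 on D21 (1.18 and 1.25).

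**Figure D4:**
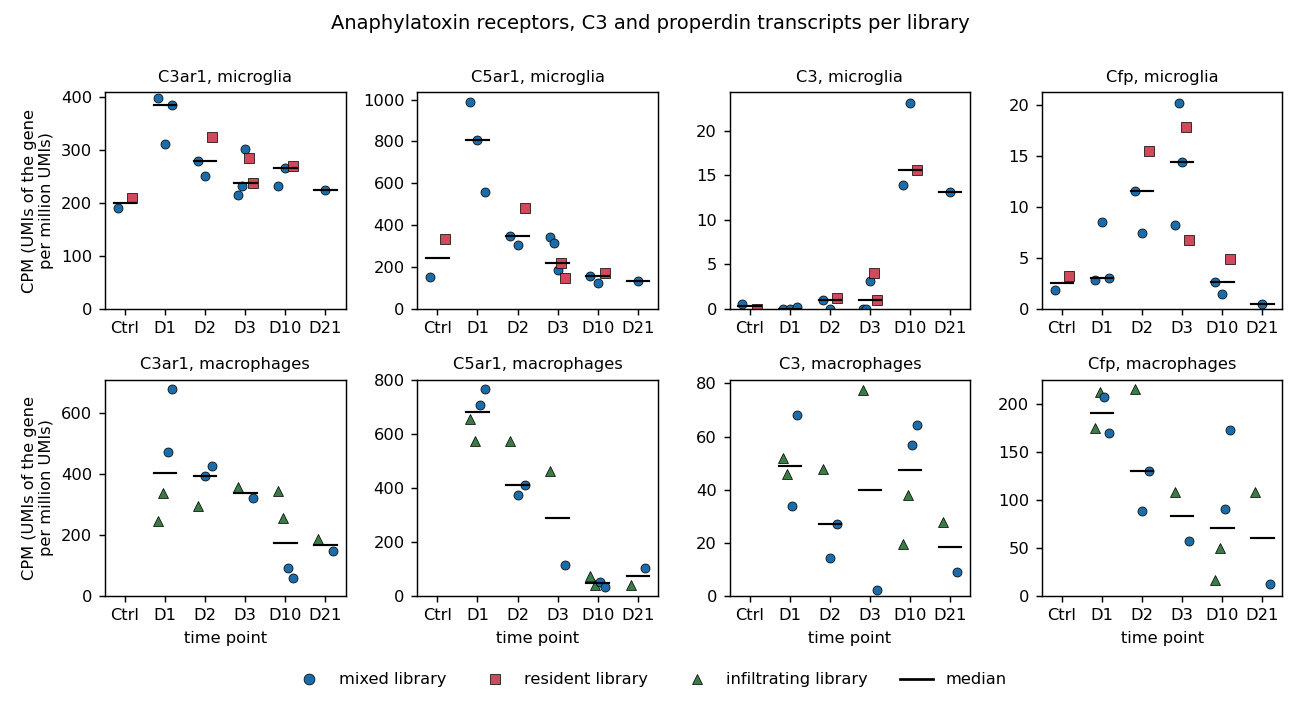
CPM of C3ar1, C5ar1, C3 and Cfp (vertical axis, linear) by time point in microglia (upper row) and macrophages (lower row). Each point is 1 library and the line is the median. Microglial C5ar1 is highest on D1 at 559 to 991 CPM, macrophage C5ar1 lies at 574 to 766 CPM on D1 and 31.1 to 71.9 CPM on D10, and microglial C3 lies at 0 to 4.0 CPM before D10.

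C3 was almost absent from control microglia and was found in a small number of molecules late. Control microglia held 3 C3 UMIs among 7451300, and the D1 sums held 1 among 12389508. D2 held 11 among 9924518, D3 held 9 among 5248734, D10 held 202 among 11432585, and D21 held 60 among 4594063. In CPM the mixed control was at 0.536 and the resident control at 0, where 3 counts would be 1.62 CPM. The D10 libraries held 13.9, 23.1 and 15.5 CPM and the D21 library 13.1 CPM.

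From these counts C3 was 43.9 times higher on D10 than in Ctrl (exact 95% interval 14.8 to 215) and 32.4 times higher on D21 (10.6 to 162). The intervals cover counting error only. The edgeR log2 fold change was 5.93 on D10 (SE 0.76, adjusted p = 6.43e-05) and 5.71 on D21 (SE 0.85, adjusted p = 0.00029), and with so few control counts it depends on the prior count. C3 passed the count filter through the late libraries. With no filter its D10 change was 5.83 (edgeR adjusted p = 1.01e-06), and with mixed libraries alone it was 10.07 with a wide error (SE 4.86, adjusted p = 0.43). In that subset the lone control is female and all D1, D3 and D10 libraries are male, and only D2 has libraries of both sexes. On D3 the ratio was 4.26 (1.06 to 24.5) and the edgeR change 2.61 (SE 0.99, adjusted p = 0.0459). That D3 call was lost with library size alone (2.11, adjusted p = 0.0958), with no filter (2.51, adjusted p = 0.0602) and with sequencing pool as a term (adjusted p = 0.268). On D2 the change was 1.78 (adjusted p = 0.176) and on D1 -1.15 (adjusted p = 0.501).

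The D10 rise was seen inside both pools that hold a control. The pool of the mixed control had 0.536 CPM in Ctrl against 13.9 and 23.1 CPM in the D10 mixed libraries, and the pool of the resident control had 0 CPM against 15.5 CPM in the D10 resident library. From D3 to D10 C3 rose by 3.32 (SE 0.54, edgeR adjusted p = 0.00168), together with a fall of Cfp and with 6.8% of genes called (2.94% higher, 3.86% lower). C1qa, C1qb and C1qc were at 0.44, 0.44 and 0.37 and not called (edgeR adjusted p = 0.277, 0.189 and 0.243). C3ar1 was at 0.00 (adjusted p = 0.994) and C5ar1 at -0.61 (adjusted p = 0.208). With pool as a term this comparison gave -1.26 for C3 (adjusted p = 1). No D3 library of this fit shares a pool with one of D10. The summed macrophage markers were also higher in the D10 microglia sums, as given above, and its part was not tested. The summed neutrophil markers, from a type with high C3, were at 199 and 219 CPM in control and 103 to 150 CPM in D10 microglia.

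Macrophages held more C3 than microglia early. It was at 51.9, 46.0, 33.9 and 68.1 CPM on D1, 47.9, 14.3 and 27.0 CPM on D2, 77.7 and 2.1 CPM on D3, 19.6, 38.0, 56.9 and 64.3 CPM on D10 and 27.95 and 9.0 CPM on D21. The D10 change from D1 was -0.26 on the log2 scale, within the spread of the libraries, and that of D21 -1.25 (SE 1.05). On D2 and D3 it was -0.61 and -0.81. The lowest level, 2.1 CPM, was that of the D3 mixed library, in which most macrophages lay in cluster 9.

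Cfp was low in microglia and rose for a short time. It was at 1.8 and 3.2 CPM in Ctrl, 2.8, 8.5 and 3.0 CPM on D1, 11.5, 7.4 and 15.5 CPM on D2, and 8.2, 20.3, 14.5, 17.9 and 6.7 CPM on D3. On D10 it was at 2.7, 1.4 and 4.9 CPM and on D21 at 0.4 CPM. The D3 libraries and 2 of 3 D2 libraries lay above both controls, and the D1 and D10 ones overlapped them. The remaining D2 value, 7.4 CPM in mixed library 2, is 1 UMI in 23 cells, where 3 counts would be 22.2 CPM. The log2 fold change was 1.89 on D1 (SE 0.68, edgeR adjusted p = 0.0299), 2.96 on D2 (SE 0.65, adjusted p = 0.00278) and 3.14 on D3 (SE 0.65, adjusted p = 0.00122), while D10 (0.90) and D21 (-1.56) were not called. Cfp fell from D3 to D10 by 2.23 (SE 0.52, adjusted p = 0.0178). With library size alone the D1 call was lost (1.17, adjusted p = 0.165), and with pool as a term the D3 call was (3.52, adjusted p = 0.221).

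The counts behind these values were 16 UMIs in Ctrl, 56 on D1, 145 on D2, 62 on D3, 30 on D10 and 2 on D21. Summed monocyte markers in the same microglia were at 8.04 and 21.6 CPM in Ctrl, 186 to 475 CPM on D1, 360 to 548 CPM on D2, 155 to 659 CPM on D3 and 226 to 280 CPM on D10. Monocytes and macrophages hold much more Cfp than microglia, and the part of such RNA in the microglial values was not tested.

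In macrophages Cfp was at 175 and 213 CPM in infiltrating and 208 and 170 CPM in mixed libraries on D1. On D10 it was at 16.9 and 49.6 CPM in infiltrating and 91.1 and 173 CPM in mixed libraries, and on D21 at 109 and 11.9 CPM. The log2 change from D1 was -0.04 on D2, -1.57 on D3 and -1.61 on D21, none of them called. The D10 change was -1.43 in edgeR (adjusted p = 0.0917) and was called by DESeq2 (-1.38, adjusted p = 0.0432), and 1 mixed library of D10 lay at the level of D1. Cfb was hardly seen in either type: there were 428 UMIs of it in all 30958 cells, and the microglia sums in the tests held at most 3.4 CPM (mixed library 2 of D3). Macrophage sums held at most 8.8 CPM in infiltrating and mixed libraries (infiltrating library of D21) and 10.7, 16.9, 17.5 and 1.85 CPM in the resident libraries of D2, D3 and D10.

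The authors' 16 clusters show where each member is highest, as a description. Cluster 1 is made up of the 1887 control cells and no others, and its median C1qa level was 13940 CPM. Among the microglial clusters of injured cord C1qa ran from 3120 CPM (cluster 2) and 7074 CPM (cluster 5) to 13643 CPM (cluster 4). Among macrophage clusters it was highest in cluster 9 (5419 CPM) and cluster 10 (3748 CPM) and low in clusters 11, 12 and 13 (193, 126 and 111 CPM).

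The receptors had other maxima. C3ar1 was highest in cluster 14, a set of 118 macrophages, at 1042 CPM (730 to 1354), followed by clusters 11 (442 CPM) and 9 (394 CPM), and it was at 7.84 CPM in cluster 13. Cluster 14 had enough cells for a sum only in the D2 resident library (49) and the D3 infiltrating library (23), which differ in sort and day. C5ar1 was highest in clusters 12 (838 CPM) and 14 (790 CPM), and lowest among macrophage clusters with much C1q, such as cluster 9 (101 CPM). Cluster 14 also had the highest Cfb, at 14.6 CPM, with cluster 11 next at 6.28 CPM. Levels of neighbours in these orders differ by less than their range over libraries in several cases, as for C5ar1 in clusters 12 and 14.

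**Figure D5:**
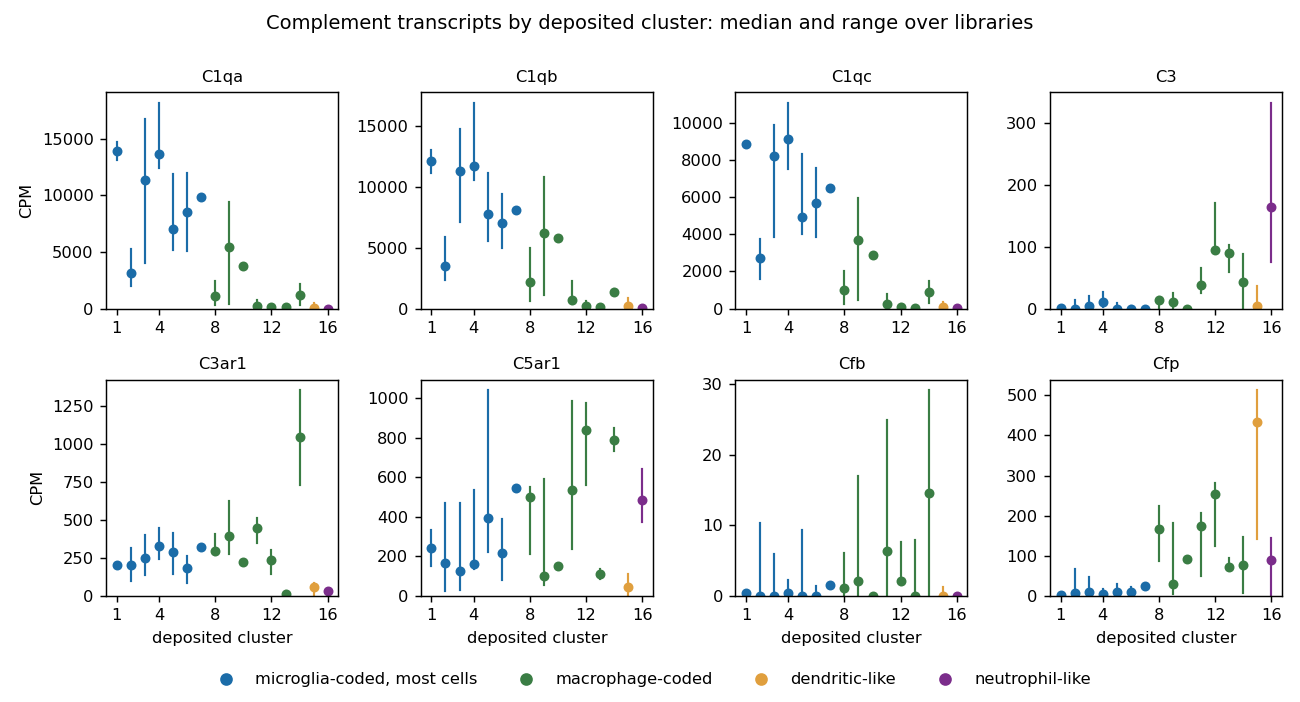
CPM of each member (1 panel per gene) in the authors' 16 clusters (horizontal axis). Points are medians over libraries, bars run from the lowest to the highest library, and colours give the cell type code. C1q genes are high in the microglial clusters and in clusters 9 and 10, Cfp is highest in cluster 15 at 433 CPM, and C3 is highest in cluster 16 at 165 CPM.

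Properdin and C3 had their highest medians outside microglia and macrophages. Cfp in dendritic-like cells (cluster 15) had a median of 433 CPM over 9 libraries, from 142 to 514 CPM, while C1qa was at 13.1 to 470 CPM and C5ar1 at 0 to 110 CPM there. Neutrophil-like cells (cluster 16) held C3 at 75.4, 247, 333 and 83.2 CPM in 4 libraries, and C5ar1 at 455, 514, 642 and 374 CPM. C1qa in these libraries was at 0 to 16.2 CPM. The library of conflicting labels had 897 neutrophil-like cells with C3 at 50.9 CPM, C5ar1 at 317 CPM and C1qa at 24.7 CPM. Clusters 12 and 13 of the macrophages came next for C3, at 94.5 and 90.2 CPM, inside the range of the neutrophil-like libraries.

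How many cells held a message was compared after thinning each cell to 1000 UMIs, which left out 30 microglia, 57 macrophages, 15 dendritic-like and 28 neutrophil-like cells. C5ar1 was found in 12.5% and 27.7% of control microglia, in 34.6%, 44.6% and 54.2% on D1, and in 8.93% to 12.6% on D10, so the shares follow the CPM. Without thinning the shares were 37.8% and 58.7% in Ctrl and 61.5% to 78.9% on D1, at median depths of 3760 to 3810 and 2652 to 3679 UMIs per cell. C3 was found in 0% and 0.07% of thinned control microglia and in 1.4% to 2% of those of D10. C1qa was found in 87% to 100% of thinned microglia over all libraries.

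In macrophages C1qa was found in 8.49% to 59.3% of thinned cells on D1, in 57.4% to 81.9% on D10 and in 79.8% and 97.4% on D21. In neutrophil-like cells, which should lack it, the share was 0% to 1.43% in 3 infiltrating libraries of D1 and D2 and 1 mixed library of D2. Libraries made up mostly of microglia, and those of D10 and D21, had no such sum, so the share that free RNA gives there was not measured. C5ar1 went the other way in macrophages, from 25.9% to 41.9% on D1 to 1.47% to 7.69% on D10. C3 was found in 5.98% to 19% of thinned neutrophil-like cells on D1 and 10.2% to 25.6% on D2.

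Of 53 other complement genes in the matrices, 17 could be tested in microglia, 12 in macrophages and 20 between the sorts. None of 7 genes of the terminal pathway, which forms the membrane pore, had enough counts. In microglia on D1, 2 of the 17 rose and 3 fell, with a median of 0.30, a smaller share than the 46.3% called over all genes. C1qbp, which encodes a mitochondrial protein that binds C1q, rose by 2.89 (369 ± 9.96 CPM, SD, n = 3, against 89.1 ± 10.5, n = 2, edgeR adjusted p = 2.01e-06). Csmd3, from a family of complement regulators, fell by 5.96 (1.54 against 162 CPM, adjusted p = 0.000208). C5ar2, the second C5a receptor, fell by 2.21 (11.1 against 74.2 CPM, adjusted p = 0.00077) while C5ar1 rose. The other gene counted as higher, Cd93, rests on 32 UMIs on D1 and 0 among the control UMIs, which allows up to 0.403 CPM (edgeR adjusted p = 0.0477), and it passed the count filter through the libraries that hold it.

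On D10 3 of the 17 rose and 1 fell (median 1.04), against 8.07% and 2.24% of all genes. Colec12, a scavenger collectin of the cell surface, rose by 5.39 (75.1 ± 16.1 CPM against 2.15 ± 1.51, edgeR adjusted p = 2.9e-06), and it had risen on D2 (2.84), D3 (4.24) and D21 (6.22) too. Itgax, the alpha chain of complement receptor 4, rose by 3.02 on D10 (39.3 against 5.64 CPM, adjusted p = 0.000937) and by 4.64 on D21. C5ar2 was still lower on D10, by 1.76 (adjusted p = 0.0102). On D2 3 rose and 4 fell (median 0.64, 29.5% of all genes called), on D3 5 rose and 3 fell (median 0.75, 37.5% called), and on D21 3 rose and none fell (median 0.64, 7.09% called). From D1 to D3 2 rose and 1 fell (median 0.65, 18.6% called). From D3 to D10 2 rose and none fell (median 0.16, 6.8% called).

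In macrophages 0 of 12 passed on D2 and D3, and on D10 4 of 12 fell and none rose (median -0.66), against 6.65% and 6.73% of all genes. These were Itgam (fell by 2.20, edgeR adjusted p = 0.0121) and Itgb2 (fell by 1.28, adjusted p = 0.00865), the chains of complement receptor 3, with Cd93 (fell by 1.53, adjusted p = 0.0162) and Calr (fell by 0.98, adjusted p = 0.0472). On D21 2 of 12 fell and none rose (median -0.49), against 1.53% and 1.76% of all genes. Infiltrating libraries had 2 of 20 higher and 5 lower than resident ones, against 4.97% and 5.67% of all genes. Masp1, a protease of the lectin pathway, was lower by -7.86 (2 UMIs in infiltrating against 129 in resident libraries), and Cd209a, a lectin and dendritic cell marker, was higher by 5.64 (edgeR adjusted p = 0.0303).

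The genes whose log2 CPM course was most like that of each member over the 17 microglia sums were named among 2767 genes of at least 50 CPM. For C1qa they were Tmcc3 (Pearson r = 0.929), AC149090.1 (0.923) and Ankrd12 (0.920), close to the values of 0.921 with C1qb and 0.922 with C1qc. For C5ar1 they were Stoml2 (0.929), Lsm7 (0.912) and Prmt1 (0.908), and for C3ar1 Ctsl (0.879), Eif3i (0.864) and Sdc4 (0.862). The 2 receptors had r = 0.648 with each other. For C3 they were Apoc4 (0.900), Pfdn5 (0.873) and Apoc1 (0.861), for Cfp Trappc3 (0.858), Selenoh (0.835) and Gm17018 (0.826), and for Cfb Grcc10 (0.866), Rnaset2a (0.855) and Rnaset2b (0.840). The sums share time points, pools and depth, so these values are a description.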

How the data were processed

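The deposited values used are the authors' raw UMI counts per gene and cell of 25 libraries, with their table of cells (cluster, cell type code, sequencing pool, total counts). Cell Ranger 3.1.0 and the builds GRCm38 and mm10 are named in the submitters' processing notes. The cell filters and the annotation release are not given in the sources used here. The deposited percent of mitochondrial counts reached 22.65 and the lowest cell had 713 UMIs. The sum of each cell's counts equalled its deposited total.

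Counts were summed per library and cell type (at least 20 cells), filtered with filterByExpr and tested with edgeR 4.0.16 in R 4.3.3 (TMM, robust quasi-likelihood fit, terms for time point and sex, and for sort in the comparison of sorts). P-values were adjusted over all genes tested, at a threshold of 0.05. The test was checked on simulated data. Microglia came from resident and mixed libraries (135097 to 7794902 UMIs a sum), macrophages from infiltrating and mixed ones (235999 to 22068469 UMIs). DESeq2 1.42.0, other scalings, a pool term, a replicate number term, equal depth and left-out libraries were tried. Library-size scaling, and the fit without clusters 2 and 3, were added after seeing the data. Count ratios have exact binomial intervals. Same-numbered libraries did not deviate together (correlations from -0.23 to 0.171), so the numbers were not taken as pairs.

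The members and gene lists were chosen with earlier results of these data known. Each of the 8 members is named in every comparison in which it was tested. Of the other complement genes at most 4 with the largest change among those past the threshold are named in a comparison, and the 3 genes of highest correlation for each member. 1 result that this rule would name is not reported here.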

Additional observations from a re-analysis of the deposited data

Results flagged for a closer look

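C3 levels lay apart between D1 and D21 in opposite directions in microglia and macrophages. In microglia it was at 0, 0 and 0.2 CPM on D1 and 13.1 CPM on D21, while the median of the D21 macrophage libraries, 18.5 CPM, lay below all 4 D1 libraries. The macrophage difference was not called (-1.25, SE 1.05). The difference between these courses was not tested, and only 1 microglia and 2 macrophage libraries are from D21.

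Members were also found in cell types that had no test of their own, at levels above those of the control libraries. C3 in dendritic-like cells was at 2.50 CPM in the lowest of 9 libraries (1 UMI) and at 35.8 CPM in the highest, against at most 0.536 CPM in control microglia. Cfp in dendritic-like cells was at 142 CPM in the lowest of 9 libraries, against at most 3.24 CPM in control microglia. C3 in neutrophil-like cells was at 75.4 CPM in the lowest of 4 libraries, leaving aside that of conflicting labels, which had 50.9 CPM. C5ar1 in neutrophil-like cells was at 374 CPM in the lowest of the same 4 libraries, against at most 332 CPM in control microglia, but at 317 CPM in the library of conflicting labels. No member stood out as a lone extreme library in the 40 groups of 4 to 10 libraries that were looked at.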

How the results depend on the processing

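The counts of called members changed under several settings. In microglia, with 3, 3, 3, 2 and 1 members called on D1, D2, D3, D10 and D21 against Ctrl, library size alone gave 5 on D1, 1 on D3 and 1 on D10. Thinning the sums to equal depth gave 0 on D2, D3, D10 and D21 and 0 for D10 against D3, but there C3 and Cfp had too few counts to be tested, so their calls could not appear. C3ar1 was tested at equal depth and lost its calls on D2, D3 and D10, and C5ar1 lost its call on D2. A pool term gave 0 on D3 and 0 for D10 against D3, where C3 reversed to -1.26. Mixed libraries alone lost the calls on D3 and D10 and gave 0 for D10 against D3. There C3ar1 was at 1.37 on D3 and 1.35 on D10, but the median of all genes had moved too. That median was 0.71 and 0.59, against -0.04 and -0.01 over all libraries. C3 was at 10.07 on D10 and at 3.37 for D10 against D3. This subset has 1 female control and male D1, D3 and D10 libraries. DESeq2, leaving out the sex term and leaving out cluster 2 each gave 2 on D21. In macrophages, with 0 called on D3 and 1 on D10 and D21, mixed libraries alone gave 4 on D3 and 2 on D10, DESeq2 5 and 4 on D10 and D21, no sex term 2 and 4, a sort term 3 and 3, and on D21 median-of-ratios scaling and the conflicting library as infiltrating each gave 2. Between sorts, with 4 called, a pool term gave 1 and the conflicting library as resident 0. The share of D1 microglia with C5ar1, 44.6%, was 26.7% at 500 UMIs and 76.3% without thinning. The cause of these changes was not tested.

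Leaving out each library in turn gave 2 to 3 members on D1, 0 to 3 on D2, 0 to 3 on D3, 1 to 2 on D10, 1 to 2 on D21, 1 to 5 for D3 against D1 and 1 to 2 for D10 against D3 in microglia, 0 on D2, 0 to 1 on D3, 1 to 2 on D10 and 0 to 2 on D21 in macrophages, and 0 to 4 between sorts. Without the mixed control the count was 0 on D2, 0 on D3 and 1 on D10. Without the resident control or the resident D10 library it was 1 on D10. It was 1 for D3 against D1 without D1 mixed library 1 and 5 without D3 resident library 2, and 1 for D10 against D3 without D10 mixed library 1 or 2. It was 0 for macrophages of D21 without the infiltrating one. Between sorts it was 0 without the D2 infiltrating, D2 resident or second D3 resident library, and 1 without the D3 infiltrating, first D3 resident or second D10 infiltrating library. C5ar1 was called in microglia on D1 in all 29 alternatives (1.63 to 3.56) and in macrophages on D10 in all 27 (-4.05 to -3.69), and C3 in microglia on D10 in 28 of the 29 that tested it, and the exception, mixed libraries alone, gave 10.07 (SE 4.86).

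The replicate numbers share only a name. A replicate block gave 4 called members in macrophages on D10 and 4 on D21, adding C1qa, C1qb and C1qc. In microglia on D3 it lost C3 (1.69, adjusted p = 0.297) and added C5ar1 (0.88, adjusted p = 0.0376), and between sorts it lost C1qb (adjusted p = 0.0552) and added C3 (adjusted p = 0.0489), all by edgeR.

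Over all genes, the calls ran from 1236 to 5654 on D1 (4998 as reported), 745 to 3868 on D2 (3183), 276 to 5137 on D3 (4055), 70 to 2610 on D10 (1114) and 213 to 2154 on D21 (766) in microglia, 349 to 2534 for D3 against D1 (2006), 0 to 1568 for D10 against D3 (735), 0 to 52, 0 to 897, 329 to 1783 (1147) and 11 to 781 (282) in macrophages of D2, D3, D10 and D21, and 0 to 1851 between sorts (1229). With library size alone the share of calls that were higher went from 51.1% to 22.6% on D1, 59% to 32.6% on D2, 53.4% to 22.8% on D3, 78.3% to 18.7% on D10 and 87.3% to 14.8% on D21. C3, Cfp and Cfb in microglia rest on few UMIs, which limits their precision.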
